A study of Homo sapiens with 2 samples.

Results

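The human mitochondrial genome carries 37 genes, 13 for proteins, 2 for rRNAs and 22 for tRNAs, and all of them had a row among the 64081 genes counted in LNCaP cells. They were chosen by their symbols, which start with MT-, and each was matched to its Ensembl identifier in the count table. LNCaP is an established, androgen-sensitive prostate carcinoma line. Its cells had spent 48 h in medium with 10% charcoal stripped serum, which lacks androgen, and poly(A)+ RNA from 2 biological replicates, the only group of the series, was sequenced with a protocol that keeps the strand. The deposited table gives both replicates as a single sum, so the spread between replicates is unknown and no conditions were compared. The intervals given are exact 95% intervals for counting error alone, and molecules copied by PCR cannot be told apart in them.

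Mitochondrial DNA is a small circle with a heavy and a light strand, each transcribed almost around the whole circle from promoters in the control region. The long transcripts are then cut, mostly at the tRNAs that punctuate them, into mRNAs, rRNAs and tRNAs. Transcription of the heavy strand gives most of the RNAs, while that of the light strand gives a single mRNA, MT-ND6, and a set of tRNAs, and otherwise yields RNA that lies antisense to genes. In the reference annotation the 28 genes of the heavy-strand transcript are on the plus strand and the 9 genes of the light-strand transcript on the minus strand. According to the methods of the study, the reads were mapped as a library whose first read has the strand of the transcript, and paired-end stranded data were counted in the reverse setting of htseq-count. With these settings together, a pair is listed under a gene on the strand opposite to its RNA, so a count listed for a minus-strand gene would come from heavy-strand transcripts and a count listed for a plus-strand gene from light-strand transcripts. Throughout, "listed" means the count as it stands in the table under that gene's name.

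The gene ends that the highest counts turn on are shown here in the reference sequence of GRCh37, plus strand, 5′ to 3′. The reads were mapped to hg19 from the UCSC Genome Browser, whose mitochondrial sequence may differ from this one, so the bounds given here could be shifted by a few bases against those used in counting. At the end of MT-CO1, which encodes the catalytic core of cytochrome c oxidase, MT-TS1, a tRNA for serine, follows on the opposite strand without a gap (chrM:7431-7514); capitals mark the last annotated codon of MT-CO1, and every base after it is MT-TS1 read in reverse.
MT-CO1 end and MT-TS1: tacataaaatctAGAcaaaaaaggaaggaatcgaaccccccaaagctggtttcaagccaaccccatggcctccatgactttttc
MT-ND5 and MT-ND6, both subunits of complex I, point at each other and meet without a gap (chrM:14119-14178); capitals mark the stop codon of MT-ND5, followed by the last codon of MT-ND6 on the other strand.
MT-ND5 end and MT-ND6 end: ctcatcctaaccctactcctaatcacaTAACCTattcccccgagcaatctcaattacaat
MT-TI and MT-TQ, the tRNAs for isoleucine and glutamine, are the only members annotated opposite each other, over 3 nt given in capitals (chrM:4309-4351).
MT-TI and MT-TQ: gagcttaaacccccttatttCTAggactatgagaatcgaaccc
All other members had no mitochondrial gene annotated on the strand opposite to them. What lies there is, for minus-strand genes, the stretch between neighbouring plus-strand genes and, for most plus-strand genes, antisense sequence with no name.

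Together the 37 genes were listed with 325360 of the 9495309 pairs counted on genes, a share of 3.43% (exact binomial interval 3.42% to 3.44%). The share depends on the denominator: it was 6.66% without the 3 highest genes of the table and 0.219% of all uniquely placed pairs. At least 10 counts were listed for 29 of the 37 genes, while 24.3% of all genes in the table reached 10 counts. At least 1 count was listed for 33 members, beside 44.6% of all genes, and at least 100 counts for 21 members, beside 7.74% of all genes. The 4 members at 0, MT-TF, MT-TV, MT-TL1 and MT-TK, are all tRNA genes on the plus strand, and a count of 0 allows up to 3 pairs as a one-sided 95% limit. A few genes held most of the total. MT-ND5 was listed with 123943 pairs, MT-TS1 with 91699 and MT-ND6 with 45729, together 80.3% of the pairs on the 37 genes (80.2% to 80.5%), and they ranked 5, 7 and 9 among all genes. Of the next, MT-ND4 had 13057, MT-ND2 had 11409 and MT-CYB had 9629, so 6 members were among the 100 highest counts of the table. Of the 14 tRNA genes on the plus strand, 6 reached 10 counts.

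**Figure D1:**
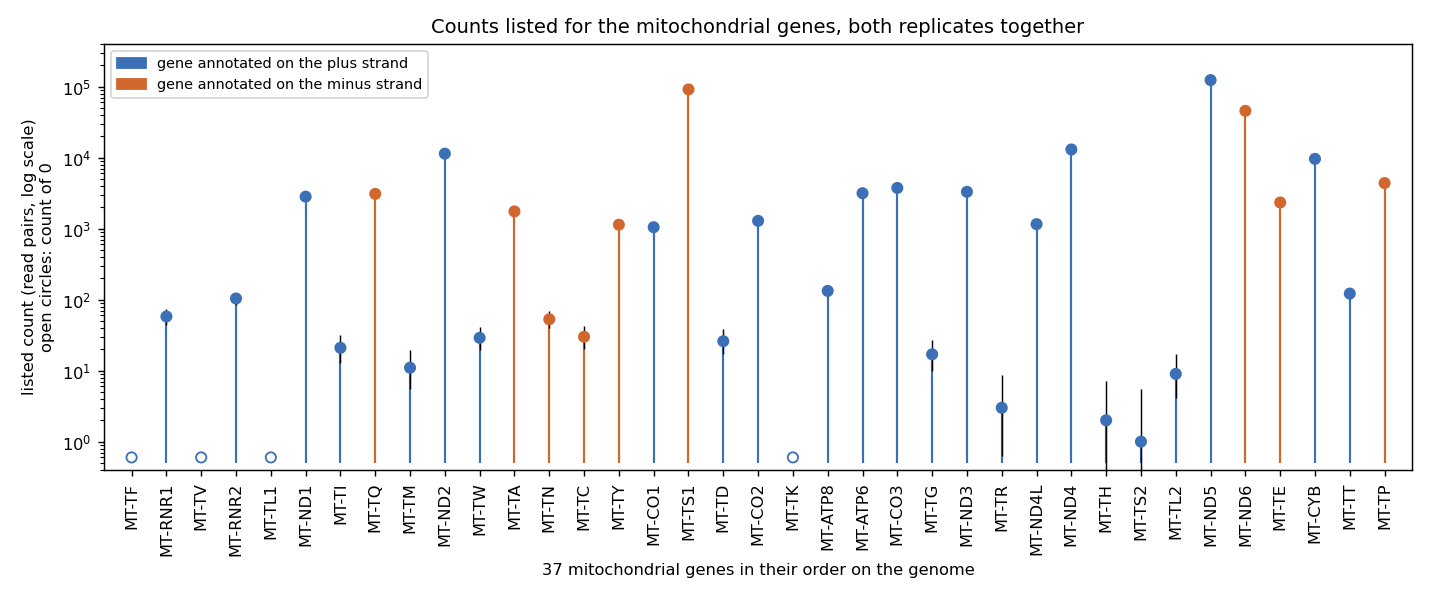
Listed counts of read pairs (log axis) of the 37 mitochondrial genes in their order on the genome, both replicates together, coloured by the strand on which the gene is annotated; black lines are exact 95% Poisson intervals and open circles are counts of 0. MT-ND5, MT-TS1 and MT-ND6 stand above all others with 123943, 91699 and 45729 pairs, and plus-strand tRNA genes lie between 0 and 122.

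**Figure D2:**
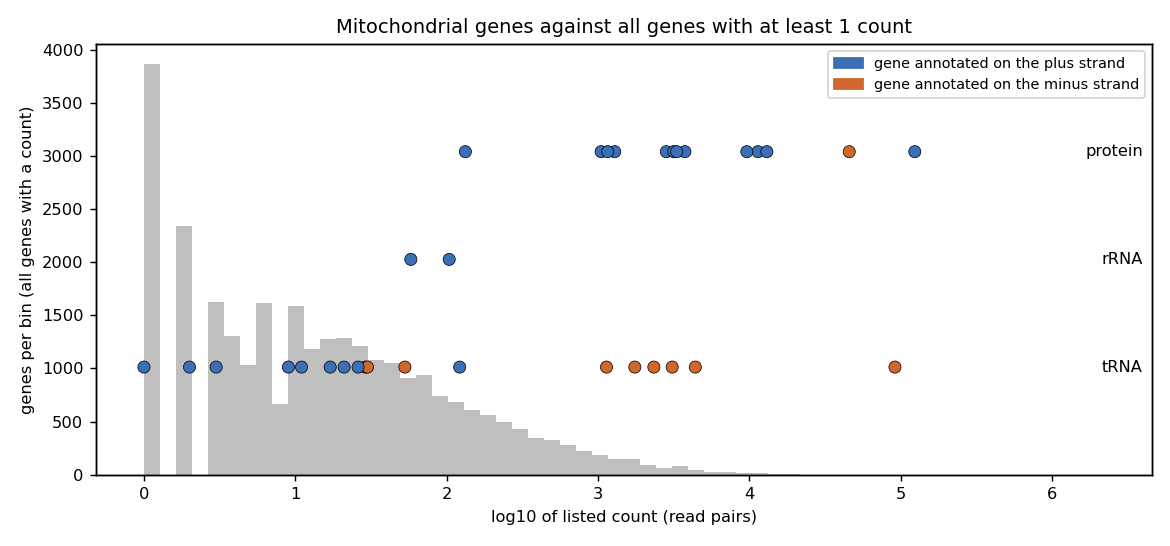
Histogram of the log10 of the listed count for the 28576 genes of the table with at least 1 count, with the mitochondrial genes as points, coloured by annotated strand and set in rows by kind (the height of a point carries no value). The 13 protein-coding members lie between 133 and 123943 pairs, the 2 rRNA genes at 58 and 104, and the tRNA genes spread from 1 to 91699.

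By annotated strand, the 9 minus-strand genes were listed with 150231 pairs on 1077 nt and the 28 plus-strand genes with 175129 pairs on 14339 nt. The minus-strand genes thus held 46.2% of the mitochondrial pairs (46.0% to 46.4%). Per kb of annotated gene, this was 139490 pairs on the minus strand (138786 to 140197) and 12213 on the plus strand (12156 to 12271), a ratio of 11.4 (11.3 to 11.5). A single gene moved this ratio on each side: it was 4.75 without MT-TS1 and 34.1 without MT-ND5, and 14.2 without both, an alternative added after the data were seen. Between the protein-coding genes alone, MT-ND6 against the other 12, the ratio per kb was 5.42, and between the tRNA genes alone it was 751 (662 to 856). Most plus-strand tRNA genes have no room for a pair of their own, as described below, and per position at which a fragment of 200 nt could be assigned to the gene alone the ratio between tRNA genes was 88.0 (77.6 to 100.3), an alternative added after the data were seen. In each of these comparisons the minus-strand genes had the higher density of listed pairs.

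Among the minus-strand genes, MT-TS1 stood far above the rest. Its 91699 pairs lay on 69 nt, 1328971 per kb (1320383 to 1337601), 15.3-fold the density of MT-ND6 (15.1 to 15.4). MT-CO1, whose end adjoins MT-TS1 without a shared base, was listed with 1049 pairs on 1542 nt, 680 per kb. The density per kb listed for MT-TS1 was thus 1954-fold that of MT-CO1 (1838 to 2078). MT-TS1 has no neighbour close by on its own strand, so an insert of 150 to 250 nt that touches its 69 nt can reach well beyond it, which raises its density per kb relative to genes that adjoin others. Counted per position at which a fragment of 200 nt with reads of 75 nt could be assigned to the gene alone, MT-TS1 had 342 pairs per position, 3.93-fold the 87.1 of MT-ND6 (3.88 to 3.97) and 526.5-fold that of MT-CO1 (495 to 560). It remained the highest of the genes that have such a position, which leaves out 13 tRNA genes and MT-ATP8. Under the settings above, pairs listed for MT-TS1 would come from heavy-strand RNA that runs past the last codon of MT-CO1, through the stretch printed in lower case after it, while pairs of MT-CO1 mRNA that end before that stretch would fall on no annotated feature.

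MT-ND6, which encodes the only mRNA of the light-strand transcript, was listed with 45729 pairs, 87103 per kb (86306 to 87905). By the settings above, these pairs would come from heavy-strand RNA opposite that mRNA. MT-ND6 lies directly after MT-ND5 and is followed by MT-TE, the tRNA for glutamate, on the same strand. MT-TE had 2341 pairs, 33928 per kb (32567 to 35330), and MT-ND6 was 2.57-fold higher (2.46 to 2.68). MT-TP, the tRNA for proline next to the control region, had 4395 pairs, 64632 per kb (62736 to 66572). MT-TQ had 3094 pairs, 42972 per kb (41471 to 44514). The remaining genes of this strand form a block of tRNAs between MT-ND2 and MT-CO1, in which the outer genes were listed high and the inner ones low. MT-TA, for alanine, had 1752 pairs, MT-TY, for tyrosine, had 1138, and between them MT-TN, for asparagine, had 53 and MT-TC, for cysteine, had 30. By density per kb the order of the minus-strand genes was MT-TS1, MT-ND6, MT-TP, MT-TQ, MT-TE, MT-TA, MT-TY, MT-TN and MT-TC, and only MT-TN and MT-TC, at 726 (544 to 950) and 455 (307 to 649) per kb, had intervals that overlapped. Per assignable position of a 200 nt fragment the order after MT-TS1 and MT-ND6 was MT-TE, MT-TA, MT-TY, MT-TP and MT-TQ, so that MT-TP and MT-TQ, which stand alone on their strand, came last. For a fragment of 150 nt MT-TP, with 20.2 pairs per position, was above MT-TY with 17.5. The 31 nt between these inner genes, which hold the known origin of light-strand replication, are in no gene and are given in capitals below with 10 nt of MT-TN before and of MT-TC after them (chrM:5720-5770).
between MT-TN and MT-TC: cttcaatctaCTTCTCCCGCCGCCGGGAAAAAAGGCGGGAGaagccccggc

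Of the 12 protein-coding genes on the plus strand, all had at least 133 pairs, and MT-ND5 stood apart. It was listed with 68401 pairs per kb (68021 to 68783), 6.25-fold the next gene, MT-ND2 (6.13 to 6.37). Its neighbours on either side were far lower: MT-ND4 before it had 9475 per kb (9313 to 9639), and MT-CYB, the cytochrome b of complex III, which lies after MT-ND6 and MT-TE, had 8439 (8271 to 8609). MT-ND5 was 7.22-fold above MT-ND4 and 8.10-fold above MT-CYB. Per assignable position of a 200 nt fragment, the gene next to MT-ND5 in rank was MT-ND3, and the ratio was 3.04 (2.93 to 3.14). For a fragment of 250 nt it was 2.00. In the direction of light-strand transcription, MT-ND6 is immediately followed by the stretch opposite MT-ND5, and then, past 3 tRNA genes, MT-TL2, MT-TS2 and MT-TH, by the stretch opposite MT-ND4. MT-ND5 and MT-ND6, which meet tail to tail, were closer in density to each other than MT-ND5 was to MT-ND4 or MT-CYB, MT-ND6 being 1.27-fold MT-ND5 (1.26 to 1.29). Under the settings above, pairs listed for MT-ND5 would come from light-strand RNA and those listed for MT-ND6 from heavy-strand RNA. Any link between these densities was not tested.

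The other subunits of complex I, the NADH dehydrogenase that passes electrons into the respiratory chain, covered a narrower range. MT-ND2 had 10949 pairs per kb (10749 to 11152), MT-ND3 had 9569 (9246 to 9901), MT-ND4L had 3902 (3681 to 4134) and MT-ND1 had 2958 (2850 to 3069). The intervals of MT-ND3 and MT-ND4 overlapped per kb, but per assignable position MT-ND3 was higher, with 22.5 pairs (21.8 to 23.3) against 11.1 (10.9 to 11.3). Among the core subunits of cytochrome c oxidase, which passes electrons to oxygen, MT-CO3 was the highest with 3753 pairs, 4787 per kb (4635 to 4943), followed by MT-CO2 with 1290 pairs, 1886 per kb (1784 to 1992), and MT-CO1 with 680 (640 to 723). MT-CO3 was 7.04-fold MT-CO1 (6.57 to 7.54). Of the ATP synthase subunits, which share 46 nt, MT-ATP6 had 3165 pairs, 4648 per kb (4487 to 4812), an interval that overlapped that of MT-CO3, although per assignable position MT-ATP6 was higher, with 7.28 (7.02 to 7.53) against 6.43 (6.22 to 6.63). MT-ATP8 had 133 pairs, 643 per kb (538 to 761), a density that is hard to set beside the others because few or no positions of a fragment of this length are assignable to it alone.

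Along the genome the 12 plus-strand protein-coding genes showed no steady gradient. Spearman's rho between gene order and pairs per kb was 0.49 over these 12 genes and 0.679 with both rRNA genes, given as a description only, since the genes share the same libraries and the same transcripts. Read from MT-CYB in the direction of light-strand transcription, the density per kb was highest at MT-ND5, lower at MT-ND4, lower still at MT-ND4L and higher at MT-ND3. It was lower again at MT-CO3 and MT-ATP6, low at MT-CO2 and lowest at MT-CO1, leaving out MT-ATP8. It was higher again at MT-ND2 and fell to MT-ND1. The step from MT-ND4 to MT-ND4L turned with the measure. Per assignable position of a 200 nt fragment, MT-ND4L had 12.7 pairs (12.01 to 13.49) against 11.1 for MT-ND4 (10.95 to 11.33). For a fragment of 150 nt MT-ND4L was the lower, with 8.22 against 10.7. MT-ND2 was 16.1-fold MT-CO1 (15.1 to 17.2). GC content ranged from 39.6% in MT-ATP8 to 47.7% in MT-ND1, and its rho with pairs per kb was -0.123.

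The rRNA genes, which encode the RNA core of the mitochondrial ribosome and lie at the start of the heavy-strand transcript, had by far the lowest densities outside the tRNAs. Pairs listed for these genes would, under the settings above, come from light-strand RNA, in whose direction they lie after MT-ND1. MT-RNR1 was listed with 58 pairs on 954 nt and MT-RNR2 with 104 pairs on 1559 nt, 60.8 per kb (46.2 to 78.6) and 66.7 per kb (54.5 to 80.8). These intervals overlapped. The next protein-coding gene on the circle, MT-ND1, was 44.3-fold above MT-RNR2 (36.5 to 54.5), and MT-ND5 was 1025-fold above it (846 to 1255). MT-TF, the tRNA gene before them, was at 0 although 71 positions could be assigned to it. MT-TV and MT-TL1 were also at 0, and neither has an assignable position for fragments of 150 to 250 nt.

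The tRNA genes of the plus strand were low throughout, with 241 pairs on 14 genes, against 104502 pairs on the 8 tRNA genes of the minus strand. The counts of tRNA genes also depend on their neighbours. In the default union mode of htseq-count, which is assumed here because the mode is not given in the sources used here, a pair that touches another gene on the same counted strand is ambiguous and is listed under neither. For a fragment of 200 nt, 13 of the 22 tRNA genes have no position at which a pair touches the tRNA gene alone, since other genes adjoin them. These 13 were nevertheless listed with 0 to 53 pairs each and 173 in all, which this reckoning at 200 nt does not account for, so it gives only an approximate measure of room. MT-TN and MT-TC, the inner genes of the minus-strand block, are among them with 53 and 30 pairs. For a fragment of 250 nt MT-TN and MT-TC have 31 and 22 assignable positions. The others of the 13 are plus-strand genes without a position at that length either, with MT-TD (26 pairs), MT-TI (21), MT-TG (17), MT-TM (11) and MT-TL2 (9) the highest. MT-TR had 3 pairs, MT-TH had 2 and MT-TS2 had 1.

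The other 9 tRNA genes have a free side or stand alone on their strand, and among those with equal room the strands did not overlap. With 66 to 71 assignable positions, the plus-strand genes MT-TF, MT-TW and MT-TT had 0, 29 and 122 pairs. With 65 to 70 positions, the minus-strand genes MT-TY, MT-TA and MT-TE had 1138, 1752 and 2341 pairs. MT-TE and MT-TT lie at opposite ends of MT-CYB, and the density of MT-TE was 18.3-fold that of MT-TT (15.3 to 22.2). MT-TA and MT-TW are 7 nt apart on opposite strands, and MT-TA was 58.7-fold higher per position (40.7 to 87.9). The 3 minus-strand tRNA genes that stand alone, with 267 to 271 positions, had 3094 pairs for MT-TQ, 4395 for MT-TP and 91699 for MT-TS1. Per position, MT-TQ had 11.4 pairs, MT-TP 16.5, MT-TY 17.5, MT-TA 25.0 and MT-TE 33.9, and MT-TS1, at 342, lay above all of these.

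**Figure D3:**
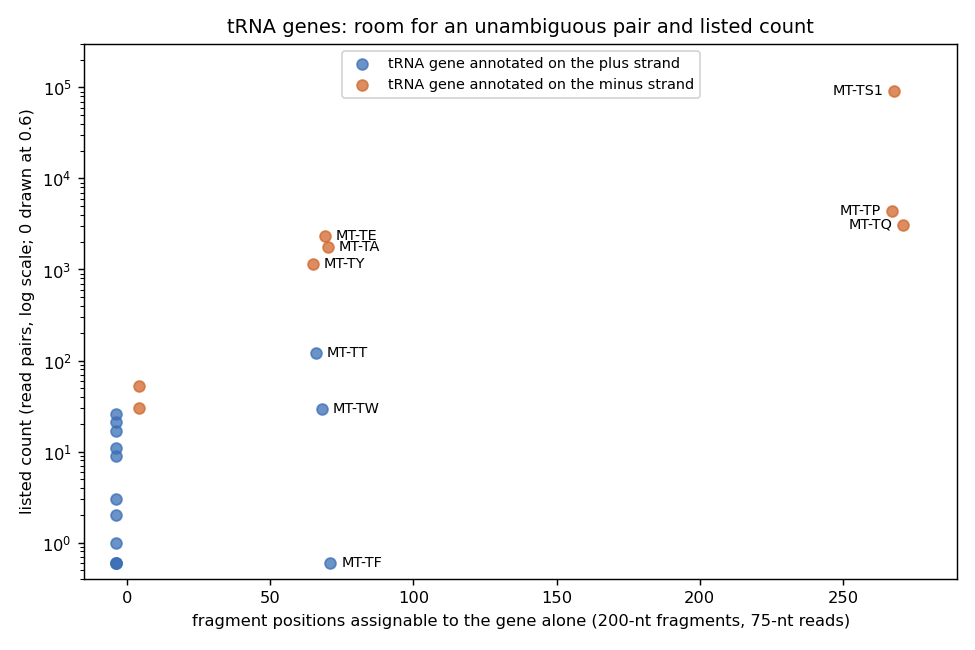
Listed counts of read pairs (log axis, counts of 0 drawn at 0.6) of the 22 tRNA genes against the number of fragment positions that touch the gene and no other gene of its strand, for fragments of 200 nt with reads of 75 nt; points without any such position are set slightly left (plus strand) or right (minus strand) of 0. At 65 to 71 positions the minus-strand genes lie at 1138 to 2341 pairs and the plus-strand genes at 0 to 122.

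The same reckoning changed part of the order of the protein-coding genes. MT-ATP8, wedged between MT-TK and MT-ATP6, has no assignable position for a fragment of 200 nt and 13 for one of 150 nt, where it had 10.2 pairs per position beside 0.650 for MT-CO1, and MT-ND4L has 91 of 496. Per assignable position MT-ND5 stayed the highest plus-strand gene with 68.4 pairs, but the next was MT-ND3, and the ratio fell to 3.04 (2.93 to 3.14). For fragments of 150 and 250 nt, alternatives added after the data were seen, MT-ND3 was still the next gene and the ratio was 4.07 (3.93 to 4.21) and 2.00 (1.94 to 2.08). MT-ND4L moved most with the fragment length, from 8.22 pairs per position at 150 nt, below MT-CYB, to 28.3 at 250 nt, above MT-ND2. For 200 nt, MT-ND2 had 13.5, MT-ND4L 12.7 and MT-CYB 8.44, and MT-CO2, MT-CO1 and the rRNA genes remained at the lower end with 2.53, 0.650 and at most 0.0768 pairs per position. Ambiguous pairs came to 209463 over all genes, and the data do not say how many of them lay on the mitochondrial genome.

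Copies of mitochondrial DNA in the nuclear genome are another place to which pairs can go, since only uniquely placed pairs were counted. The largest near-identical copy in GRCh37 lies on chromosome 1 (chr1:564461-570304), is 98.5% identical over 5846 aligned nt and covers the mitochondrial genome from within MT-ND1 to within MT-CO3. Of all stretches of 75 nt in the mitochondrial genome, 14.4% have an identical nuclear copy and 47.7% one with at most 2 differences. Among reads of this length that touch a gene, those with an identical copy made up 41.8% for MT-CO1, 31.6% for MT-ND2 and 24.3% for MT-CO2, against 0.2% for MT-ND5, 5.5% for MT-ND6 and 0% for MT-ND4 and MT-CYB. For MT-TS1, the gene with the highest density, they made up 52.4%. For MT-TN, a low inner gene of the minus-strand block, they made up 100%, beside 42.9% for MT-TC, 52.4% for MT-TA and 36.4% for MT-TY, and for MT-TK, at 0 pairs, 76.4%. Across the 12 plus-strand protein-coding genes the rho of this share with pairs per kb was -0.427, and its part in the counts was not tested. All these shares are of single reads, while read pairs were counted, and shares of pairs were not computed. A pair whose mate lies outside an identical stretch could still be placed uniquely.

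The 7 annotated copies in this stretch of chromosome 1 were each listed with fewer pairs than their mitochondrial gene, and with 1179 in all. MTND2P28, the copy of MT-ND2 and the highest of all nuclear copies, had 1026 pairs, 8.25% of the sum with MT-ND2 (7.77% to 8.75%), and MTATP6P1 had 147, 4.44% of the sum with MT-ATP6 (3.76% to 5.20%). MTND1P23 had 5 pairs and MTCO3P12 had 1, and MTCO1P12, MTCO2P12 and MTATP8P1 were at 0. MTND1P23, with 372 nt beside 956 nt of MT-ND1, and MTCO3P12, with 547 nt beside 784 nt of MT-CO3, cover only part of their genes. All 7 copies lie in the same orientation as their mitochondrial gene. Of 394 annotated nuclear copies in the whole genome, 262 were at 0 and 52 (13.2%) had at least 10 pairs, and their sum of 4165 pairs was 1.28% of that of the 37 mitochondrial genes. Outside this stretch, the highest were MTND4P20 on chromosome 10 with 761 pairs, MTND5P11 on chromosome 5 with 187 and MTCO3P38 on chromosome 3 with 123. MTND5P11 lies in an alignment that is 94.1% identical to the mitochondrial genome and MTCO3P38 in one that is 75.7% identical. These values are for the whole alignment, which also covers other copies. For MTND4P20 the search found no alignment at its settings, so the sum over all copies also holds pairs on sequence of lower or no detected identity.

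**Figure D4:**
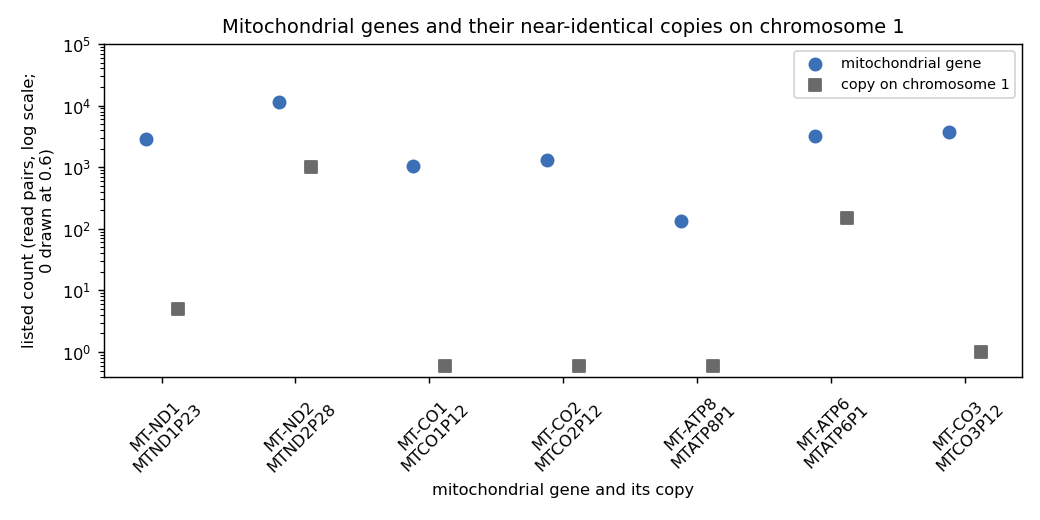
Listed counts of read pairs (log axis, counts of 0 drawn at 0.6) of 7 mitochondrial genes and of their near-identical copies on chromosome 1, both replicates together. Each copy lies below its mitochondrial gene, and the closest pair is MT-ND2 with 11409 and MTND2P28 with 1026. Counts are not scaled by length, and MTND1P23 and MTCO3P12 cover only part of their genes.

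Nuclear genes that work with these members were counted in the same table, and under the same settings their counts too would come from the opposite strand. Of 79 nuclear subunits of the oxidative phosphorylation complexes, 49 (62.0%) had at least 10 pairs, beside 44.2% of all 19391 nuclear protein-coding genes, and their median was 17 pairs, beside 6 for all of those. The 13 mitochondrial protein-coding genes had a median of 3311 pairs and all reached 10, while the rRNA genes, with 58 and 104 pairs, lay within the range of the nuclear subunits. In complex I, 23 of 37 nuclear subunits reached 10 pairs, led by NDUFB2 with 450, NDUFA6 with 376 and NDUFS7 with 360. NDUFB2 lies opposite BRAF and NDUFB2-AS1, while NDUFA6 has no exon annotated opposite to it. NDUFA8, NDUFA12, NDUFS4 and NDUFS5 were at 0, and so was NDUFB8, which lies opposite HIF1AN. In complex III 7 of 9 did, with UQCRB at 72 and UQCR11 at 0. In complex IV 4 of 11 did, with COX4I1 at 157 and COX6B1 and COX7C at 0. In complex II 2 of 4 did, with SDHC at 71 and SDHB at 1. In complex V 13 of 18 did, led by ATP5IF1, the inhibitor of the ATP synthase, with 1808 pairs, more than MT-CO1, MT-CO2, MT-ND4L or MT-ATP8. ATP5IF1 lies opposite an unnamed gene over 79 nt. ATP5F1E, which lies opposite TUBB1, was at 0.

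Of 28 nuclear genes that transcribe, process or degrade mitochondrial RNA, 15 (53.6%) had at least 10 pairs, with a median of 10, near the 44.2% of all nuclear protein-coding genes. Of the transcription genes 3 of 9 did. POLRMT, the mitochondrial RNA polymerase, had 4 pairs, TFAM, the factor that packs and activates mitochondrial DNA, had 3, TFB1M had 2 and MTERF1 had 1, and TFB2M, needed to open the promoters, and MTERF3 were at 0. MTERF4, which lies opposite SNED1, had 533 and TEFM, the elongation factor, which lies opposite an unnamed gene over 542 nt, had 358. Of the processing and stability genes 8 of 14 did, led by TRNT1, which adds the CCA end to tRNAs and lies opposite CRBN, with 836 and SLIRP, a partner of LRPPRC in the stability of mRNAs, with 254. Of the decay genes 4 of 5 did. PNPT1, the polynucleotide phosphorylase, which has no exon annotated opposite to it, had 191. PDE12 had 39, GRSF1 had 13, SUPV3L1, the helicase that works with PNPT1, had 10, and REXO2 was at 0.

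As for the series as a whole, 93.5% of the 148700190 uniquely placed pairs were assigned to no annotated feature, where mitochondrial mRNAs would be found if the strands were opposite as described. Among markers of prostate luminal cells, KLK2 had 89 pairs, FOLH1 had 50, KLK3 had 18, TMPRSS2 had 15 and HOXB13 had 8. The fibroblast markers COL1A1, COL1A2 and DCN ranged from 6 to 15, the leukocyte markers PTPRC, CD3E and LYZ from 0 to 49, and VWF of endothelium was at 0. Because these listed counts would likewise come from the opposite strand, they do not check the label of the cells.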

How the data were processed

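Poly(A)+ RNA of LNCaP cells was sequenced as read pairs of 75 nt from 2 biological replicates. Per the methods and labels, the authors used Trimmomatic 0.30 for trimming and TopHat 2.0.12 with Bowtie 2.2.3 (fr-secondstrand) for mapping to hg19, counted pairs per gene with htseq-count 0.6.1p1 and deposited raw counts of both replicates in 1 column, without normalization. Its 5 summary lines were kept out of all totals. The total was 9495309 pairs on genes.

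The mitochondrial genes and lists were chosen with earlier results of these data known. All 37 members may be named; of each list the 3 genes with the highest count and the lowest, not all of which are printed, and of the nuclear copies the 5 highest and the chromosome 1 cluster. POLRMT, TFAM, TFB1M, MTERF1 and SUPV3L1, and KLK3, TMPRSS2 and other markers beyond this rule, were named after their values were seen. Identifiers without version were matched to GENCODE v44 on GRCh37 for all 37 genes; the mitochondrial sequence of the authors' hg19, from the UCSC Genome Browser, and their gene annotation were not compared with these. Intervals are exact Poisson for counts, Clopper-Pearson for shares and conditional binomial for ratios, at 95%. Assignable positions were counted on the circle for fragments of 150, 200 and 250 nt in union mode, tested on simulated fragments. Nuclear copies were found with BLAST 2.17.0 (word size 16); a near-identical stretch has at most 2 differences over 75 nt. Python 3.11.15, numpy 2.4.6, pandas 2.3.3, scipy 1.17.1, samtools 1.23.1 and matplotlib 3.10.9 were used. No test was made, since there is 1 group. Alternatives were the length measure, fragment length, genes left out, denominators and the minimum count. PECAM1 had no match. Some genes of the marker lists are not reported here.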

Additional observations from a re-analysis of the deposited data

How the results depend on the processing

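The density of listed pairs was higher on minus-strand than on plus-strand genes under every alternative run, but its size moved. Against 11.4 per kb, the ratio was 7.40, 6.39 and 5.64 per assignable position with fragments of 150, 200 and 250 nt, and 5.96 per touching position (chosen after seeing the data). It was 5.42 for protein-coding genes, 751 for tRNA genes (88.0 per assignable position, chosen after seeing the data), 4.75 without MT-TS1, 34.1 without MT-ND5 and 14.2 without both (also chosen after seeing the data). MT-ND5 was above the next plus-strand protein-coding gene 9.49-fold by raw count and 3.04-fold per assignable position (4.07 and 2.00 with fragments of 150 and 250 nt, chosen after seeing the data), against 6.25-fold per kb. The mitochondrial share of 3.43% was 6.66% without the 3 highest genes of the table, 4.63% of the pairs on Ensembl genes and 0.219% of the uniquely placed pairs. Leaving out a replicate was not run, because both are summed in 1 column. The plus-strand tRNA genes and the rRNA genes had counts of 0 to 122, and 11 of the 14 tRNA genes have no assignable position for a fragment of 200 nt.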
